A study of Mus musculus with 2 samples.

Results

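The Schlafen genes of the mouse are a family of close relatives in a cluster on chromosome 11. The 7 members described here, Slfn1, Slfn2, Slfn3, Slfn4, Slfn5, Slfn8 and Slfn9, were chosen by name from 55536 measured genes, with earlier results of these data in view, and all 7 were found. They were measured in total RNA of peripheral-blood neutrophils from C57BL/6J mice aged 5 to 6 weeks, sex not collected, with no treatment and no second condition in the series. Both libraries, labelled biological replicates 1 and 2, carry 1 donor identifier, so the spread between them may be technical. Each was made with ScriptSeq v2 reagents from 100 ng of RNA.

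Schlafen proteins are named after the German word for sleep, because the first members found slow the growth of developing T cells when overexpressed. They share an N-terminal core that in several members binds or cuts transfer RNA. The mouse proteins are sorted by size into group I (Slfn1 and Slfn2, the core alone), group II (Slfn3 and Slfn4, with a linker region) and group III (Slfn5, Slfn8 and Slfn9, with a helicase-like C-terminal part). Several members are induced by type I interferon, and Slfn2 keeps T cells and monocytes quiescent.

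The libraries summed to 22647028 (replicate 1) and 21471719 (replicate 2) expected counts. TPM here means reads per effective transcript length scaled to a fixed library total, so it compares genes per length. That total includes non-coding RNA, and TPM scaled to nuclear protein-coding genes alone was higher by a mean of 3.54 log2 units. Levels and the threshold of 1 TPM are therefore not on an mRNA-only scale. Values are mean ± SD over the 2 libraries (n = 2) unless given per library. The label of neutrophils was checked against marker genes. A gene was called detected where both libraries put it at 1 TPM or more. All 10 neutrophil markers were detected, with S100a9 at 1199 ± 107 TPM. The B-cell list was also detected in full (10 of 10), at a summed TPM of 719 and 645 in replicates 1 and 2 against 2546 and 2577 for the neutrophil list. S100a9 and S100a8 (749 ± 52.0 TPM) made up most of the neutrophil sum, and the list medians were closer, at 70.8 ± 1.24 TPM for neutrophil and 45.9 ± 4.75 TPM for B-cell markers. The neutrophil marker Ly6g was the lowest of its list at 2.10 ± 0.269 TPM. T-cell markers summed to 35.0 and 33.7 TPM (9 of 10 detected), monocyte markers to 51.0 and 46.6 (9 of 10), platelet markers to 25.1 and 25.3 (5 of 8), natural killer markers to 8.35 and 8.25 (2 of 8) and dendritic markers to 2.16 in both (1 of 6). Red-cell markers summed to 4328 and 4263 TPM, most of it globin, with the erythroid factor Klf1 at 0.00500 ± 0.00707 and 5 of 8 detected. Of these markers, 0 in any list stood at 0 TPM in both libraries. Lymphocytes and monocytes are known to transcribe Schlafen genes too. The part of these cells in the levels below was not tested, and in whole libraries more RNA per cell cannot be told apart from more cells of a type.

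The coding sequences show which members are near copies and which are not, and this bears on how reads can be assigned to them. Sequences below come from the GENCODE M21 transcripts numbered 201 of each gene (GRCm38, the assembly named mm10 in the files), and bases are counted from the first base of the start codon. Slfn8 and Slfn9 have coding sequences of equal length, 2730 nt each, and 92.7% of their bases were identical with no gap. Their first 60 coding bases differ at 10 positions, in capitals:
Slfn8: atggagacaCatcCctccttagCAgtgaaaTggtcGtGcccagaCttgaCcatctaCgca
Slfn9: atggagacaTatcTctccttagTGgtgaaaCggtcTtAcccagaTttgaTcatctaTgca
Slfn3 and Slfn4 are closer still, at 95.3% identity over 1521 aligned bases, but the coding sequence of Slfn3 (1551 nt) begins inside that of Slfn4 (1806 nt). Bases 1 to 60 of Slfn3 align with bases 268 to 327 of Slfn4 and differ at 2 positions, in capitals:
Slfn3: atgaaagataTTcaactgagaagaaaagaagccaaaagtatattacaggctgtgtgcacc
Slfn4: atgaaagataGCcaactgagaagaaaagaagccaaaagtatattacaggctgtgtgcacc
The group I genes are far less alike. Slfn1 (1011 coding nt) and Slfn2 (1134 coding nt) were identical at 70.3% of 1004 aligned bases. The first gap-free stretch of 60 aligned bases, from base 90 of Slfn1 and base 192 of Slfn2, differs at 22 positions, in capitals:
Slfn1: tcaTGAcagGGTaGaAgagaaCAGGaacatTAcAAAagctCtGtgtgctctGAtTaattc
Slfn2: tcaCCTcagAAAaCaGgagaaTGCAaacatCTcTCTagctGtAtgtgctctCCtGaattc

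Identity is uneven along these genes. The longest identical run of Slfn8 and Slfn9, bases 2540 to 2678 of both, spans 139 bases:
Slfn8 and Slfn9: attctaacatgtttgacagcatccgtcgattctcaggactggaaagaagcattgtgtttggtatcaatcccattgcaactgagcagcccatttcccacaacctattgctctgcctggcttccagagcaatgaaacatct
Slfn2 and Slfn4 belong to different groups and were identical at only 72.9% of 1081 aligned bases, yet bases 901 to 1001 of Slfn2 match bases 946 to 1046 of Slfn4 without a difference over 101 bases:
Slfn2 and Slfn4: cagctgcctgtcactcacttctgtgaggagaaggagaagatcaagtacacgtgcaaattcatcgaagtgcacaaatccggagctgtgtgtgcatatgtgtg
A read that falls wholly inside such a run fits both genes equally well.

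Slfn2, the quiescence factor of group I, was the highest member. It stood at 113.57 TPM in replicate 1 and 108.65 in replicate 2, on 16638 and 16075 expected counts. Its mean of 111 ± 3.48 TPM ranked 78th among 22015 nuclear protein-coding genes. Slfn1, the founding member and a brake on T-cell growth, stood at 62.53 and 56.30 TPM on 10384 and 9437 counts. The 2 libraries do not overlap between these genes. Slfn2 lay above Slfn1 by 0.90 ± 0.06 log2 units of TPM, a gap far wider than the spread between libraries. Group I together held 63.1 ± 0.601% of the summed TPM of the 7 members and 41.9 ± 0.977% of their expected counts, which are not divided by length.

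Within group II, levels were as far apart as the coding sequences are alike. Slfn4, which is known to be induced in macrophages by interferon and Toll-like receptor ligands, stood at 81.09 TPM in replicate 1 and 73.56 in replicate 2. Slfn3, a gene linked to T-cell and gut epithelial differentiation, stood at 0.570 and 0.430 TPM. By expected counts Slfn4 had 28466 and 25560, the most of any member, and Slfn3 had 97.5 and 75.1. Slfn4 ranked 29th among protein-coding genes by counts and 134th by TPM, and its effective length in replicate 1 was 3591 nt against 1499 nt for Slfn2. It took 43.1 ± 0.526% of the members' counts and 28.6 ± 0.376% of their TPM. The share of group II as a whole was 43.2 ± 0.543% by counts and 28.8 ± 0.403% by TPM, so group I led by TPM, and by counts the shares of groups I and II differed by less than their summed SDs.

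Group III held 8.05 ± 0.198% of the members' TPM and 14.8 ± 0.434% of their counts. Slfn8 stood at 11.69 TPM in replicate 1 and 10.58 in replicate 2, on 3963 and 3475 counts. Slfn5, a nuclear member also known as an interferon-induced gene, stood at 10.62 and 9.50 TPM, on 5601 and 4984 counts. The near copy of Slfn8, Slfn9, stood at 0.690 and 0.450 TPM on 363 and 242 counts. Slfn8 exceeded Slfn9 in both libraries by TPM and by counts, with effective transcript lengths of 3467 nt and 5348 nt in replicate 1. Short forms (Slfn1 and Slfn2) exceeded the long forms of group III by 2.97 ± 0.05 log2 units of summed TPM. Their summed expected counts were 26267 ± 1067 and 9314 ± 867, a smaller gap.

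**Figure D1:**
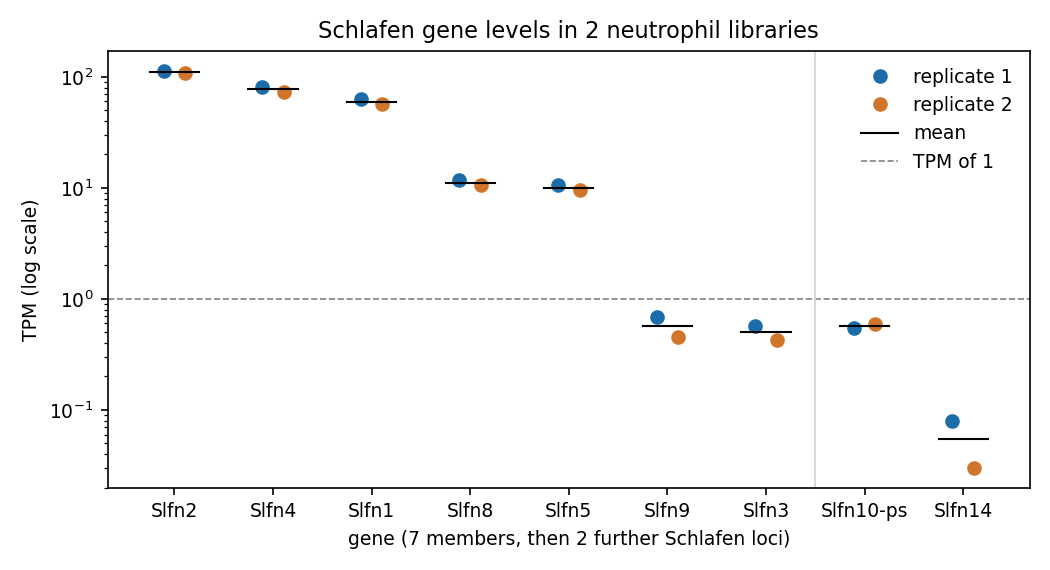
TPM (log axis) of the 7 members in descending order and of Slfn10-ps and Slfn14, with 1 point per library and a bar at the mean. Slfn2, Slfn4 and Slfn1 lie above 50 TPM, Slfn8 and Slfn5 near 10, and Slfn9 and Slfn3 below the dashed line at a TPM of 1.

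In descending order of mean TPM the members were Slfn2 (111 ± 3.48), Slfn4 (77.3 ± 5.32), Slfn1 (59.4 ± 4.41), Slfn8 (11.1 ± 0.785), Slfn5 (10.1 ± 0.792), Slfn9 (0.570 ± 0.170) and Slfn3 (0.50 ± 0.0990). Neighbours differed beyond their spread at 4 of the 6 steps. The exceptions were Slfn8 over Slfn5, with a gap of 1.07 TPM against summed SDs of 1.58, and Slfn9 over Slfn3, with a gap of 0.0700 against 0.269. Both gaps had the same sign in the 2 libraries. The order of Slfn8 and Slfn5 was not kept in the other tables. With the M4 gene table Slfn5 stood at 12.17 and 10.57 TPM and Slfn8 at 11.83 and 10.57, and with the alignment-free table Slfn5 led in both libraries (20.5 and 18.0 against 18.8 and 16.6).

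Of the 7 members 5 were detected, all but Slfn3 and Slfn9, beside 34.9% of protein-coding genes. These 5 were chosen with their levels known, so the share says nothing further. Slfn9 and Slfn3 still had at least 75.1 expected counts in each library, against the limit of 3 counts that a count of 0 allows. They lay above 59.1% and 58.1% of protein-coding genes by mean TPM. The 7 members together summed to 281 TPM in replicate 1 and 259 in replicate 2, which was 0.315 ± 0.00554% of the TPM of nuclear protein-coding genes.

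The members lie within 264 kb of chromosome 11 (82951349 to 83215154, GRCm38), and level did not follow position in any simple order. Slfn5 (ENSMUSG00000054404.13) lies at 82951349 to 82964840 on the plus strand and opens the cluster. Slfn9 (ENSMUSG00000069793.12, 82978390 to 82991830) and Slfn8 (ENSMUSG00000035208.16, 83002158 to 83020810) follow, the only members on the minus strand. Slfn2 (ENSMUSG00000072620.3, 83065112 to 83070678), Slfn1 (ENSMUSG00000078763.2, 83116849 to 83122670), Slfn4 (ENSMUSG00000000204.16, 83175186 to 83190216) and Slfn3 (ENSMUSG00000018986.10, 83191330 to 83215154) come next on the plus strand. Slfn4 and Slfn3, the highest and the lowest member by counts, are separated by 1113 bases. The 3 highest members by TPM are thus 3 consecutive members on 1 strand.

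**Figure D2:**
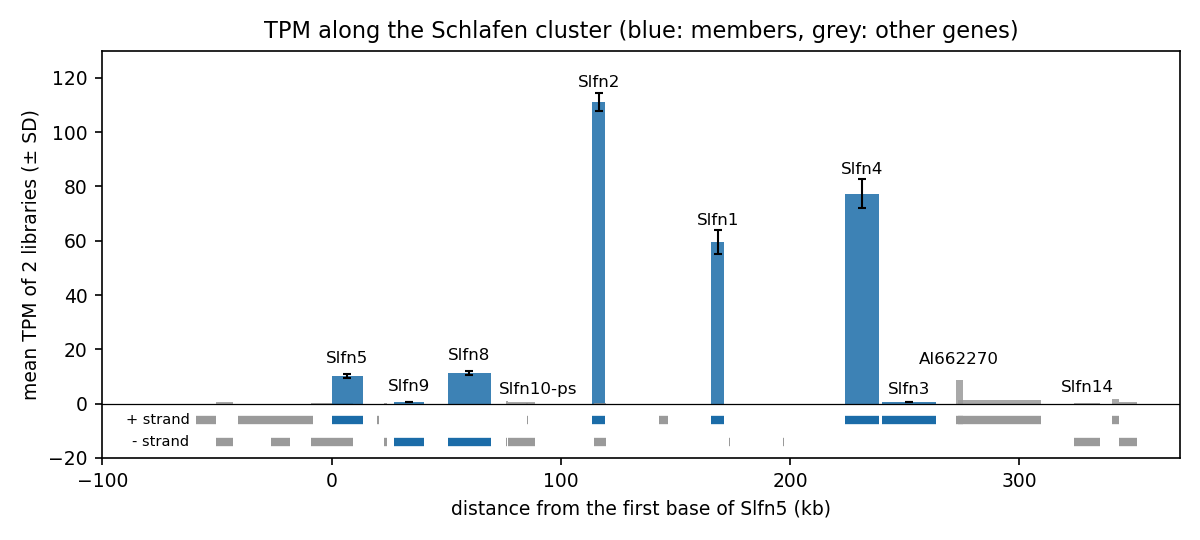
Mean TPM (with SD bars on members, n = 2) of genes along the cluster against distance from the first base of Slfn5 in kb, with gene bodies drawn below by strand. Blue bars are members and grey bars other genes, and Gm23444, an snRNA gene at 13606 TPM, is left out. Slfn2, Slfn1 and Slfn4 stand above all other genes drawn.

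Of the other loci with a Schlafen name that were measured (Slfn10-ps, Slfn14, Slfnl1 and Slfn5os), none was detected. The transcribed pseudogene Slfn10-ps, between Slfn8 and Slfn2, stood at 0.550 and 0.590 TPM on 186 and 200 counts, with the same mean TPM as Slfn9. Slfn14, a ribosome-bound nuclease known from platelets and red-cell precursors, stood at 0.0800 and 0.0300 TPM on 29 and 11 counts. Slfnl1, on chromosome 4, had 5 counts in replicate 1 and 0 in replicate 2, where 3 counts correspond to 0.140 CPM (counts scaled to the library total). The antisense gene Slfn5os, which shares 559 exonic bases with Slfn5, had 3 and 20 counts, against 5601 and 4984 for Slfn5. The SD that the authors attach to each count estimate was 0 for Slfn5 and for Slfn5os in both libraries. The strand setting of the counting is unknown, and how reads from the shared bases were assigned was not tested. Gm20234 runs antisense through the Slfn2 gene without a shared exonic base and had 26 and 9 counts.

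Of 29 other genes within 100 kb of a member, 7 were detected. The processed transcript AI662270, just beyond Slfn3, stood at 9.26 and 8.06 TPM, and the overlapping pseudogene Gm11427 at 1.13 and 1.26. Gm11427 shares sequence with Slfn3 and Slfn4, as given below, and had 147 and 132 counts. Among the protein-coding neighbours, the clathrin adaptor gene Ap2b1 stood at 6.65 and 5.80 TPM, and Rad51d, a DNA repair gene, at 1.73 and 1.83.

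Words of 31 bases that 2 genes share were counted over all annotated transcripts, as a measure of how far reads could fit more than 1 gene. Slfn1 shared 1.96% of its words with any other gene on the same strand and Slfn5 4.92%. Slfn2 shared 10.3%, with Slfn4 as the largest partner (6.98%). Slfn4 shared 20.1% and Slfn3 30.0%, each with the other as the largest partner (12.9% and 15.1%). For Slfn8 the share was 26.8%, led by Slfn9 (19.1%), and for Slfn9 it was 23.6%, led by Slfn10-ps (14.3%).

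With words of 75 bases the shares were 0% for Slfn1, 1.70% for Slfn2, 6.78% for Slfn3, 3.12% for Slfn4, 1.53% for Slfn5, 6.99% for Slfn8 and 5.90% for Slfn9. At this length the largest partner of Slfn3 and of Slfn4 was the pseudogene Gm11427 (3.73% and 1.34%). Slfn3 and Slfn4 held 1.32% and 1.12% in common with each other. The largest partner of Slfn8 and of Slfn9 was Slfn10-ps (4.98% and 4.48%). The read length is not given in the sources used here. On the opposite strand, 13.2% of the words of Slfn5 lay in other genes, most often in Slfn5os. Between members, no word of 31 bases was shared across the division between Slfn1 to Slfn4 and Slfn5 to Slfn9.

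**Figure D3:**
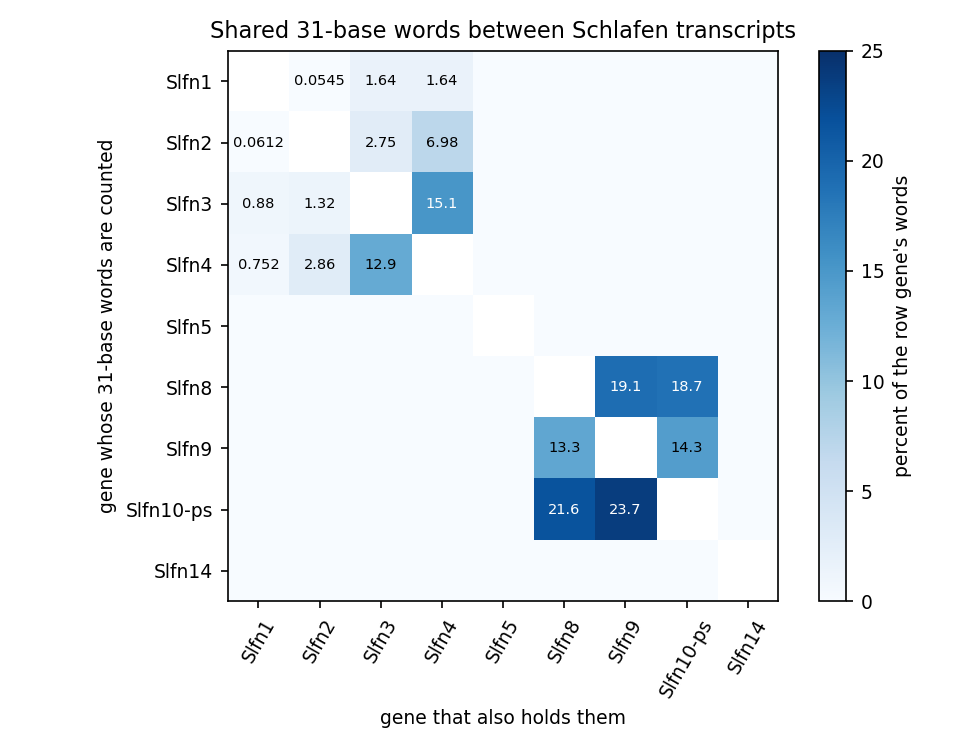
Percent of each row gene's 31-base words that the column gene also holds on the same strand, for the 7 members, Slfn10-ps and Slfn14. Sharing falls into 2 blocks, Slfn1 to Slfn4 and Slfn8 with Slfn9 and Slfn10-ps, and the highest value is 23.7% of Slfn10-ps words in Slfn9.

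The authors' own SD of each count estimate gives a second view of read sharing. It was 0 for Slfn1 and Slfn5 in both libraries, and 0.710 and 1.23 counts for Slfn2 and 1.04 and 1.34 for Slfn4, at most 0.00765% of their counts. For Slfn8 it was 3.96 and 3.08 counts, at most 0.0999% of the count. It was larger in proportion for the low members, at 1.46% and 0.959% of the count for Slfn3 and 0.220% and 1.01% for Slfn9. Across the 7 members it reached at most 1.46% of the count.

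The 2 ways of quantifying the same libraries differed far more than that for the low members. Over detected protein-coding genes, the alignment-free table held a median of 1.29 times the main count in replicate 1 and 1.27 times in replicate 2, with 5th to 95th percentiles of 1.14 to 1.64 and 1.13 to 1.59. Slfn1, Slfn2, Slfn4, Slfn5 and Slfn8 had ratios of 1.14 to 1.22. Slfn9 had 1004 and 751 counts in place of 363 and 242, which is 2.76 and 3.10 times. Slfn3 had 193 and 179 in place of 97.5 and 75.1, which is 1.98 and 2.38 times. A ratio over 2 was found in 1.36% and 1.02% of detected protein-coding genes.

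On the TPM scale, detected protein-coding genes were higher by a median of 0.86 log2 units in the alignment-free table. Relative to that shift Slfn9 was higher by 1.00 log2 units and Slfn3 by 0.24, and Slfn4, Slfn2, Slfn1 and Slfn8 were lower (-0.38, -0.35, -0.28 and -0.19), with Slfn5 at 0.08. Slfn9 thus stood at 2.42 and 1.70 TPM in that table, past the threshold of 1, and Slfn3 at 1.14 and 0.987, on either side of it. The level of Slfn9 and Slfn3 is uncertain by at least this factor. The M4 table gave them fewer counts than the main table, 269 and 188 for Slfn9 and 88.2 and 66.2 for Slfn3. Their TPM there was close to the main value (0.670 and 0.450 for Slfn9, 0.550 and 0.410 for Slfn3). Slfn8 remained above Slfn9 in both libraries in all 3 tables (18.8 and 16.6 against 2.42 and 1.70 TPM in the alignment-free one).

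**Figure D4:**
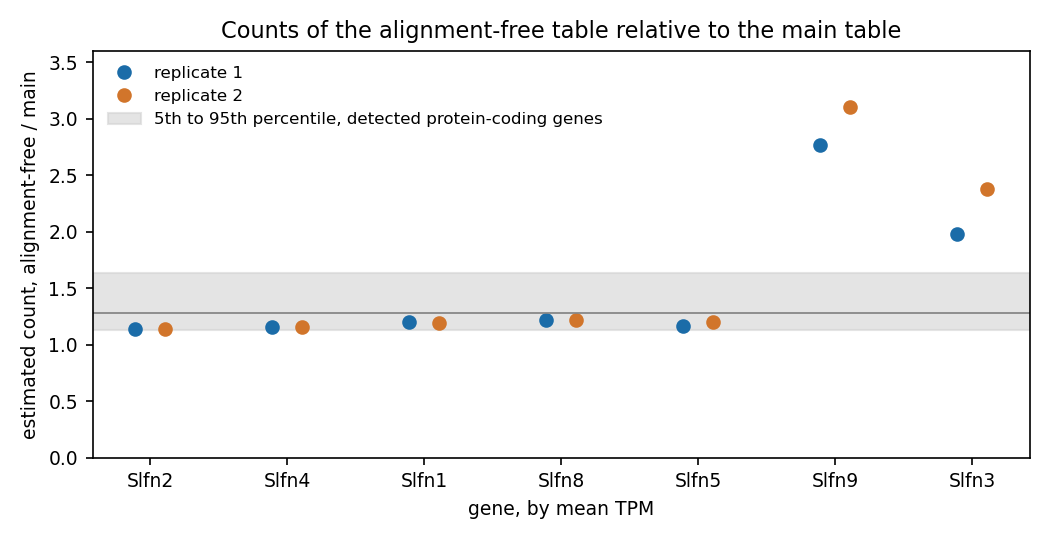
Ratio of the alignment-free to the main count for each member in each library, with the 5th to 95th percentile range of detected protein-coding genes in grey. Slfn9 (2.76 and 3.10) and Slfn3 (1.98 and 2.38) lie above the grey band and the other 5 members lie inside it or at its lower edge.

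Slfn1 and Slfn2 have 1 annotated transcript each, of 2 exons. Of the 3 Slfn4 transcripts, the 8-exon Slfn4-201 took 64.0% of the gene's TPM in replicate 1 and 62.4% in replicate 2, Slfn4-202 (7 exons) 30.1% and 28.6%, and Slfn4-203 (3 exons) 5.87% and 9.0%. The alignment-free table gave 67.1% and 72.3% to Slfn4-201, 31.7% and 26.3% to Slfn4-202 and 1.19% and 1.32% to Slfn4-203. The order was the same in both libraries and both tables.

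Slfn8 was spread over more forms. Slfn8-201 led with 62.1% and 57.2% and Slfn8-203 followed with 32.6% and 25.1%, and both kept these ranks in the alignment-free table (59.3% and 52.6%, then 26.1% and 26.9%). Slfn8-206 was listed at 0% in replicate 1 and 8.18% in replicate 2 and at 0% in both by the alignment-free table, so its presence is uncertain. Slfn8-204 took 3.58% and 7.98% in the main table but 13.9% and 19.6% in the other.

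For Slfn5 the 2 tables gave different pictures of the same gene. Slfn5-201, the longest form at 5979 nt, took 91.1% and 89.3% in the main table and 56.5% and 57.6% in the alignment-free one. Slfn5-203 (1263 nt) took 8.91% and 9.32%, against 22.1% and 22.6%. Slfn5-202 (3007 nt) took 0% and 1.39%, against 21.4% and 19.8%. The libraries were close to each other within each table, so the spread between libraries does not cover this difference.

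Slfn9-201 took 93.0% and 95.9% of Slfn9. Slfn3 was the only member whose leading transcript changed between the libraries. Slfn3-202 led in replicate 1 (59.3%, with Slfn3-201 at 39.7%), Slfn3-201 led in replicate 2 (79.2%, with Slfn3-202 at 9.26%), and the alignment-free table put the non-coding form Slfn3-203 first in both (48.3% and 58.7%). These shares rest on fewer than 100 counts for the gene in each library of the main table. The authors' TPM bounds for Slfn3-201 overlapped between the libraries (0.0744 to 0.392 and 0.169 to 0.425). Those for Slfn3-202 did not (0.175 to 0.485 and 0.00323 to 0.170).

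**Figure D5:**
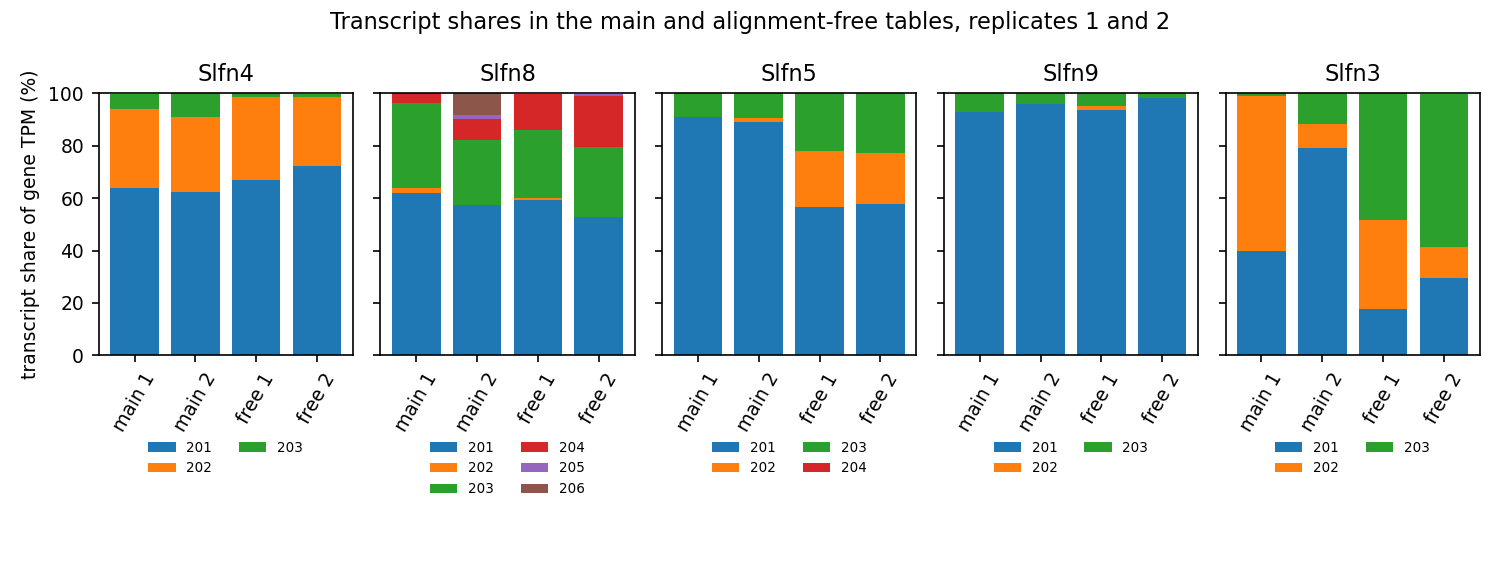
Share of each gene's TPM (percent) taken by its annotated transcripts, for 5 members with more than 1 transcript, in the main table and the alignment-free table ("free") for replicates 1 and 2. Slfn4 keeps its order in all 4 bars, Slfn5-201 stands at 91.1% and 89.3% in one table and 56.5% and 57.6% in the other, and Slfn3 has a different leader in different bars.

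Of the 5 members with enough signal for the comparison (at least 50 counts and 1 TPM in the higher library), 0 differed between the libraries by a fold of 2 in TPM + 1, beside 0.923% of 9097 such genes. Slfn3 and Slfn9 were below 1 TPM in both libraries and could not be called. All 7 members had a lower TPM in replicate 2, as did 69.0% of detected protein-coding genes. The members' median log2 ratio of replicate 2 to replicate 1 was -0.15, beside -0.10 for detected protein-coding genes. By CPM the median ratio of detected protein-coding genes was 0.990, so the size of the shared fall depends on the scaling. Slfn2 moved least, with a log2 ratio of -0.06. On the CPM scale its ratio was 1.02 (95% interval 0.997 to 1.04), and with TPM rescaled to nuclear protein-coding genes it was higher in replicate 2 (1301 against 1289), so its direction depends on the scaling.

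Slfn9 moved most, from 0.690 to 0.450 TPM, a log2 ratio of -0.62. On the CPM scale its ratio was 0.703 with a 95% interval of 0.595 to 0.830. Only 2.36% of detected protein-coding genes had a lower log2 TPM ratio, and Slfn9 itself is below their threshold. Slfn3 had a CPM ratio of 0.807 (0.589 to 1.10), which includes 1. CPM ratios of the other 4 members lay between 0.925 and 0.959. The upper ends of their intervals lay between 0.963 and 0.986, so these also exclude 1. The intervals cover counting error only, and 2 libraries of 1 group give no test.

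Genes of the type I interferon pathway, which is known to induce several Schlafen genes, were present in both libraries. The 10 receptor and factor genes were all detected, and their median level was 13.7 ± 0.728 TPM. The transcription factor Irf1 led at 31 ± 0.283 TPM, and the kinase Jak1 (26.7 ± 2.09) and Irf3 (18.7 ± 1.51) were also among the highest. Tyk2, the other receptor kinase, was lowest at 2.63 ± 0.0212.

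Of 26 interferon-induced genes, 23 were detected, and the list's median level was 3.38 ± 0.191 TPM. Oasl2 (29.0 ± 2.21 TPM), Ifitm3 (17.4 ± 1.88), the RNA sensor Ddx58 (13 ± 0.693) and Rnf213 (10.7 ± 0.629) were the highest, and Ifi44 was lowest at 0.0500 ± 0.0283. Slfn2, Slfn4 and Slfn1 lay above every gene of both lists in both libraries. Slfn8 and Slfn5 lay below Oasl2, Ifitm3 and Ddx58 in both. With no interferon-treated or interferon-deficient sample, no level here can be assigned to the pathway.

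Promoter sequences of all 7 members matched entries of RefSeq on GRCm38.p6, which span 250 bases before and 50 after each start. They were searched on both strands for the core of the interferon-stimulated response element, written as GAAA, any 2 bases, GAAA. It was found in 3 members, Slfn5, Slfn8 and Slfn9, and in 3.99% of 27025 genes. These are the 3 members of group III. The windows of Slfn8 and Slfn9 are near copies, as their coding sequences are, so their matches do not count as separate cases. The windows below show the match in capitals with 25 bases on either side, 5′ to 3′ on the gene's strand:
Slfn8, chr11:83020824-83020883, minus strand: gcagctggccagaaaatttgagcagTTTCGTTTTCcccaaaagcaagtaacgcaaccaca
Slfn9, chr11:82991841-82991900, minus strand: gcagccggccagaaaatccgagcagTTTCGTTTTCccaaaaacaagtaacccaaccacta
Slfn5, chr11:82951922-82951981, plus strand: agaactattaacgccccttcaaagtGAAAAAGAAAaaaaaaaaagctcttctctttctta
The match lies 45 bases before the start in Slfn9, 48 bases before the nearer of 2 starts in Slfn8 and 155 bases before the start in Slfn5, where a run of A follows it. The longer form with a C after the second GAAA, which contains the first, was found in Slfn8 and Slfn9 and in 0.944% of genes.

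The same 10 bases thus stand before Slfn8 and Slfn9, whose levels differed from 11.1 ± 0.785 to 0.570 ± 0.170 TPM. No match to this core was found in the windows of Slfn1, Slfn2, Slfn3 and Slfn4, which include the 3 highest members. The motif GAGGAAGT (a PU.1 site, in 3.69% of genes) was found in no member's window on either strand. Such a match is a description of letters in this window only, and any link between a match and a level was not tested.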

How the data were processed

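Total RNA from blood neutrophils was measured in 2 libraries of a single group. The authors deposited a gene table on GENCODE M21 (mm10) for each library, which was the main table and holds expected counts (reads assigned to a gene by estimation, so not whole) and TPM (counts divided by effective length and scaled to a fixed total), per the file headers. A deposited M21 transcript table gives each transcript's percent of its gene's TPM (IsoPct). The gene table also holds the authors' signal columns, which are bounds of each TPM and the SD of each count estimate. Those bounds carry no stated level. A deposited M4 gene table and a deposited M21 transcript table whose parents include no alignment (the alignment-free table, with estimated counts and TPM) served as alternatives. The sources used here do not give programs, versions or strand settings.

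Symbols came from the names in the alignment-free table, joined by gene ID, and 55450 of 55536 genes matched. All 7 members were found. Entries with no gene held 1.63e-04% and 2.16e-04% of the expected counts in replicates 1 and 2. The members and lists were chosen with earlier results of these data known, so levels are descriptions with no test. All members are named. Of the gene lists, the 4 highest and the lowest are named, except an item that is not reported here. Cell type markers are given by list, and cluster neighbours where a result turns on them.

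Detection required 1 TPM or more in each library. A difference between libraries required a fold of 2 or more in TPM + 1, with 1 TPM or more in the higher library and 50 counts or more there. Neighbours in the order of levels were called apart where the gap of means exceeded the sum of both SDs with 1 sign in both libraries. Count ratios carry exact conditional binomial 95% intervals of rounded counts, which cover counting error only. The fold rule was run on simulated data as applied to scaled counts, not to TPM + 1. The simulated libraries differed by counting error only, so this run cannot vouch for the calls made here. Shared sequence was counted as words of 31 and 75 bases over all M21 transcripts, and coding sequences were aligned globally with Biopython 1.88 (match 2, mismatch -2, gap opening -10, gap extension -1). Other tools were Python 3.11.15, numpy 2.4.6, pandas 2.3.3, scipy 1.17.1, matplotlib 3.10.9, and in R 4.3.3 edgeR 4.0.16 and DESeq2 1.42.0 for scaling factors only. Alternatives covered the tables, the scaling, the thresholds, the pseudocount and leaving out a library.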

Additional observations from a re-analysis of the deposited data

How the results depend on the processing

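No paired analysis was possible because the series has a single group. The count of detected members, 5 in the main table, was 5 with the M4 table, the authors' posterior mean TPM, a minimum of 5 TPM or either library alone. It was 6 with the alignment-free table, and 7 with rescaled TPM, a minimum of 0.1 TPM or at least 10 expected counts. The share of protein-coding genes that pass was counted for the main rule only (34.9%). Alignment-free and rescaled TPM run higher for such genes, so a threshold of 1 is looser there. The median of all protein-coding genes was 0.12 TPM, above the minimum of 0.1, so these higher counts say nothing particular about the members. The summed TPM of the members, 270.1 in the main table, was 396 with the alignment-free table and 3147 with TPM rescaled to nuclear protein-coding genes, a rescaling that multiplies every such gene alike, by a median of 3.54 log2 units over the 2 libraries. Leaving out a library gave 259 to 281. The log2 ratio of Slfn2 to Slfn1, 0.90 in the main table, was 0.83 with the alignment-free table and 0.86 to 0.95 with 1 library left out. The log2 ratio of short to long forms, 2.97 in the main table, was 2.90 with the M4 table, 2.67 with the alignment-free table, 2.91 with a pseudocount of 1 and 2.94 to 3.01 with 1 library left out. The count of members that differed between libraries was 0 under each alternative run: the M4 and alignment-free tables, rescaled TPM, a fold of 1.5, no minimum count, and counts scaled by edgeR's TMM or by DESeq2 size factors. Only 5 members had the signal to be called in the main table. The log2 ratios of Slfn2 to Slfn1 and of short to long forms stayed positive under these alternatives, while the order of Slfn8 and Slfn5 and the direction of Slfn2 between libraries changed, as given above. Where a value moved between tables, the cause was not tested. Slfn3 and Slfn9 had the fewest counts of the members, 75.1 to 363, and their counts changed most between the main and the alignment-free table.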
